A study of Mus musculus with 12 samples.

Results

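Rest, which encodes the transcriptional repressor REST, and 8 neuronal genes under its control were followed across the 4 groups of a gene table from mouse embryonic stem (ES) cells. The 9 genes were chosen by symbol: Rest, Vgf, Bex1, Snap25, Syt4, Chga, Syp, Syn1 and Celsr3, out of 17901 genes in the table, and each had normalized counts in all 12 libraries. Their measured levels were not part of the choice, although earlier results on the same data were known when it was made.

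The cells were TT2, a line of mouse ES cells. Wild-type (WT) cells were compared with cells in which both Rlf and Zfp292, genes for zinc finger proteins, had been knocked out (double knockout, DKO). Each genotype was grown in serum/LIF, the medium that holds ES cells undifferentiated, or was treated with 5 µM retinoic acid (RA) without LIF for 72 hours to induce differentiation. Each of the 4 groups had 3 libraries. The labels call the replicates biological but name no separate clones, and nothing shows that they are separate lines, so p-values measure the spread between these libraries, which may be technical.

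REST binds a DNA sequence called RE1 near neuronal genes and recruits corepressors, among them CoREST with the demethylase LSD1 and histone deacetylases, and Sin3. In ES cells and most cells outside the nervous system it holds such genes low, and its level falls as neural cells form. Apart from Bex1, the targets take part in the neuronal secretory and synaptic machinery or in axon guidance. Vgf and Chga encode proteins of secretory granules. Snap25, Syt4, Syp and Syn1 encode proteins of vesicles and their fusion. Bex1 encodes a small adaptor protein, and Celsr3 a large cadherin receptor.

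The libraries held 30869766 to 40236799 reads in genes. Rlf stood at 3510 to 3701 in WT serum/LIF and 2472 to 2733 in WT RA, and Zfp292 at 4652 to 5273 and 2859 to 3566. In DKO, Zfp292 was listed at 0 in all 6 libraries and Rlf at 0 to 3.52. The summed level of 8 ES cell markers was 96833 to 112644 in serum/LIF and 4231 to 7264 after RA. One library stood apart. WT RA replicate 2 had 41.7% of its repeat reads in repeats of the rRNA class, against 4.14% to 7.28% elsewhere, and its recovered reads stood farther from those of its replicates (chi-square divided by its degrees of freedom, 10.1 and 14.2) than the other two stood from each other (5.06). It also carried more of several neuronal transcripts, as given with the synaptic genes. Tests of the 9 genes and counts of listed genes that use it are therefore given with and without it.

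Among the 9 genes, 5 had a promoter sequence in the RefSeq-based table used here (build GRCm38.p6), which covers 250 bases before and 50 after the start site. Rest, Vgf, Snap25 and Syt4 had none. These windows were searched on both strands for the half-sites of RE1, CAGCACC and GGACAG, with 2 bases of any kind between them, which leaves 13 fixed letters. Syn1 and Celsr3 matched at 12 of 13 letters, and the 250 bases before each start site are printed because they hold this stretch, shown in capitals.
Syn1: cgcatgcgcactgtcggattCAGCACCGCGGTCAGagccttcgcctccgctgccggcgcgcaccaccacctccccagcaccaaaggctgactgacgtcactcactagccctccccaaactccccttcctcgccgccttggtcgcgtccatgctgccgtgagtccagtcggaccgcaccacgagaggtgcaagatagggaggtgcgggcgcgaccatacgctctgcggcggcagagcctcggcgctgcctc
Celsr3: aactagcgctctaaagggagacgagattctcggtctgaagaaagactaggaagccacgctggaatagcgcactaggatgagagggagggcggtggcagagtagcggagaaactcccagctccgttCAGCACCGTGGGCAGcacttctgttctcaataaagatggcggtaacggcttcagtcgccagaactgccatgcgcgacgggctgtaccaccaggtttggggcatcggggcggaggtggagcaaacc
The Syn1 stretch lay 230 to 216 bases before the start site (window chrX:20920919-20921168, minus strand) and that of Celsr3 lay 125 to 111 bases before it (window chr9:108825795-108826044, plus strand). Both starts were those of the deposited gene table. Of all 32851 windows in the table, 61 (0.186%) held a match at 12 or more letters, and 12 (0.0365%) matched in full. The best match was 9 of 13 letters in Bex1 and Chga and 8 of 13 in Syp, which says only that these letters were not in those windows. A match is a description of sequence and not evidence of binding.

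**Figure D1:**
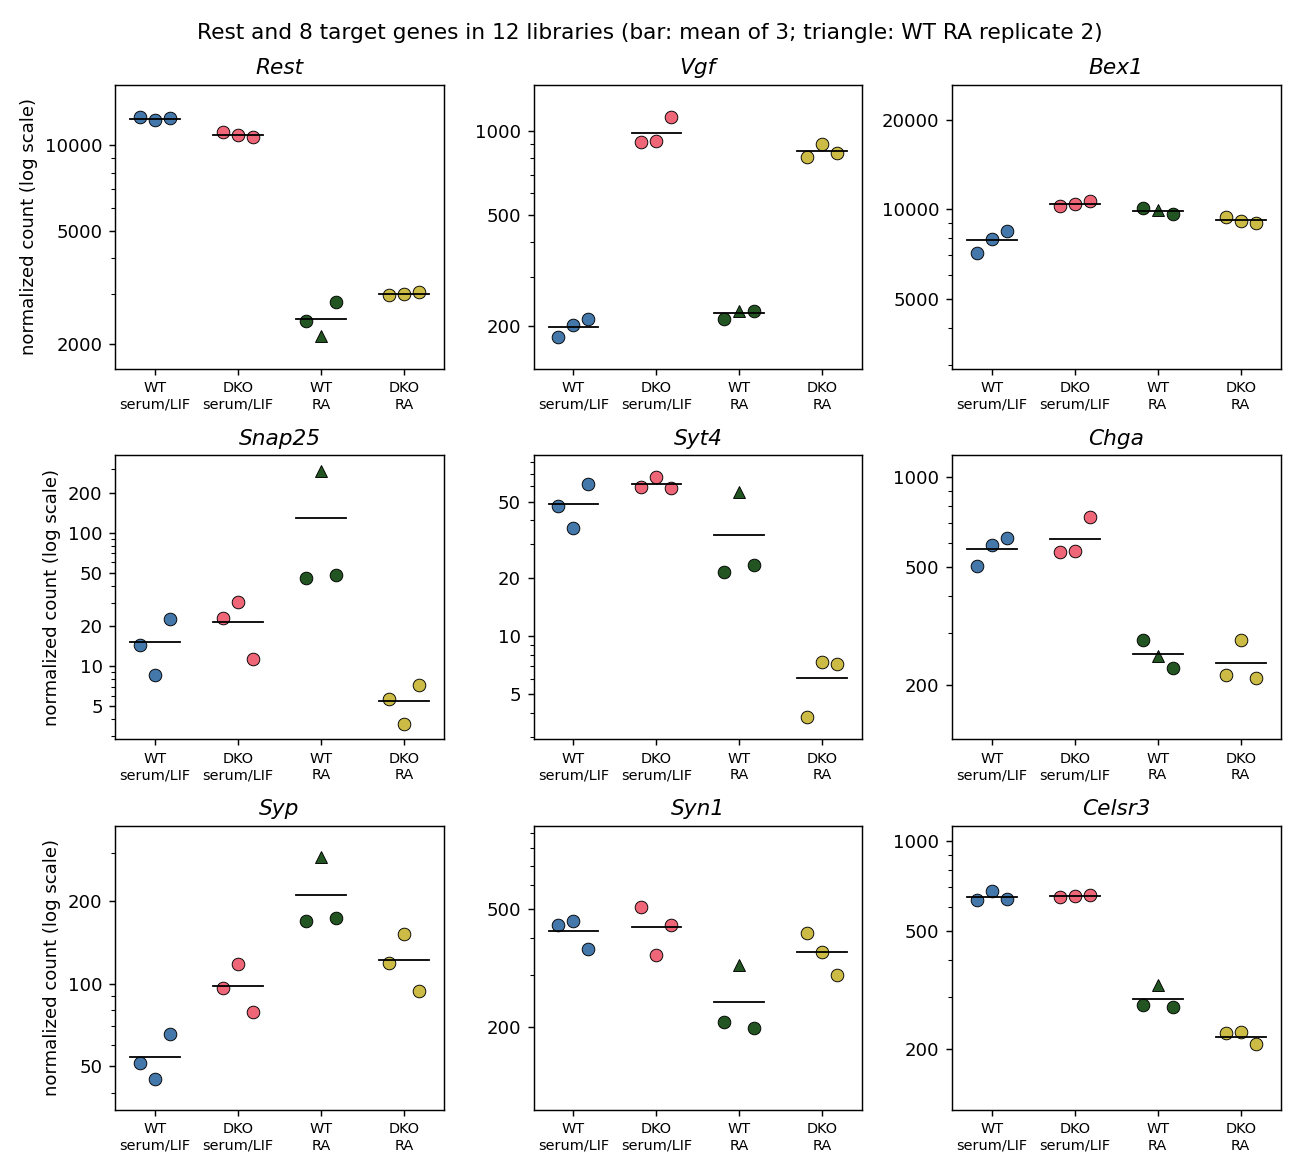
Normalized count (log axis) of Rest and its 8 targets in the 12 libraries, with the 3 libraries of each group as points, a bar at their mean and a triangle for WT RA replicate 2. Rest drops from group means of 12395 and 10887 in serum/LIF to 2447 and 3000.4 after RA, Vgf is high in all 6 DKO libraries, and Snap25, Syt4, Syp and Syn1 have WT RA replicate 2 above the other two.

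Rest was abundant in ES cells and fell with RA in both genotypes, and the 2 genotypes differed little beside that fall. The normalized counts of Rest (chr5:77265494-77283697, plus strand, mm10) were 12529.5, 12238 and 12416 in WT serum/LIF and 11162, 10855 and 10644 in DKO serum/LIF. After RA they were 2407, 2125 and 2808 in WT and 2972, 2987 and 3043 in DKO. No group overlapped another, and the means ran in the order WT serum/LIF (12395 ± 147, SD, n = 3), DKO serum/LIF (10887 ± 261), DKO RA (3000.4 ± 37.2) and WT RA (2447 ± 343). RA lowered Rest by 2.35 ± 0.06 on the log2 scale in WT, where the WT RA mean was 5.07-fold lower (limma adjusted p = 3.05e-18), and by 2.25 ± 0.05 (adjusted p = 8.25e-23) without WT RA replicate 2. In DKO it fell by 1.86 ± 0.06, or 3.63-fold (adjusted p = 2.16e-16). Here and below a log2 difference is a difference of log2(normalized count + 1) with its standard error (SE) from limma, and adjusted p-values are Benjamini-Hochberg values over 15750 genes.

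The genotype difference of Rest had opposite signs in the 2 conditions. Rest was lower in DKO in serum/LIF, with a log2 difference of -0.19 ± 0.06 (limma adjusted p = 0.0276). It was higher in DKO after RA, by 0.30 ± 0.06 (adjusted p = 0.000606), and by 0.21 ± 0.05 (adjusted p = 0.00159) without WT RA replicate 2, which has the lowest Rest count of its group. The test of the difference between these effects, the interaction, gave 0.49 ± 0.09 (adjusted p = 0.000284), and 0.39 ± 0.07 (adjusted p = 5.79e-05) without that library. The serum/LIF call was lost when any of 5 single libraries was left out: WT serum/LIF replicate 1 (adjusted p = 0.0728), 2 (0.0525) or 3 (0.0733), or DKO serum/LIF replicate 2 (0.0757) or 3 (0.0977). Most ES cell markers, though not all, differed in the direction of Rest. In serum/LIF 5 of 8 were lower in DKO and 0 higher, where 15.4% of all genes were lower. Pou5f1, Nanog and Dppa3 were not called. The means of Nanog (12581 in WT, 13047 in DKO) and Dppa3 (3131 and 3306) were higher in DKO. The ranges of the summed level of the 8 were 110658 to 112644 in WT and 96833 to 98788 in DKO. After RA 8 of 8 were higher in DKO with and without WT RA replicate 2, where 22.0% and 19.9% of all genes were higher. The sums were 4231 to 4299 in WT and 6849 to 7264 in DKO. No marker of the 8 was at 0 in any group. Their part in the Rest difference was not tested, and in bulk RNA fewer cells of a type and less RNA per cell cannot be told apart.

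Of the granule proteins, Vgf followed genotype and Chga followed RA. Vgf (chr5:137030295-137033351, plus strand), the precursor of secreted neuropeptides, had counts of 183, 203 and 212 in WT serum/LIF and 918, 924 and 1128 in DKO serum/LIF. After RA it had 213, 227 and 228 in WT and 809.7, 897 and 838 in DKO. Every DKO library was above every WT library. The DKO mean was 4.96-fold that of WT in serum/LIF (log2 difference 2.30 ± 0.10, limma adjusted p = 7.42e-15) and 3.81-fold after RA (1.92 ± 0.10, adjusted p = 1.81e-13), or 3.84-fold without WT RA replicate 2 (1.94 ± 0.11, adjusted p = 7.13e-13). In WT, where Rest fell 5.07-fold with RA, the log2 difference of Vgf with RA was 0.16 ± 0.10 (adjusted p = 0.14), and 0.15 ± 0.11 (adjusted p = 0.223) without that library. In DKO it was -0.22 ± 0.10 (adjusted p = 0.0486), a call lost without DKO serum/LIF replicate 3 (0.304), DKO RA replicate 1 (0.149) or DKO RA replicate 3 (0.106), and with libraries scaled to equal totals the value was 0.02 (adjusted p = 0.88).

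Chga (chr12:102554941-102565027, plus strand) encodes chromogranin A, a core protein of the granules. It had counts of 504, 591 and 626 in WT serum/LIF and 563, 563 and 738 in DKO serum/LIF. After RA the counts were 283, 251 and 228 in WT and 216, 283 and 211 in DKO. The genotypes overlapped in both conditions, and all RA libraries lay below all serum/LIF libraries. Chga fell with RA by 1.17 ± 0.13 in WT (limma adjusted p = 1.23e-08) and by 1.39 ± 0.13 in DKO (adjusted p = 6.8e-10). The genotype differences were 0.11 ± 0.13 in serum/LIF (adjusted p = 0.562) and -0.11 ± 0.13 after RA (adjusted p = 0.535). Without WT RA replicate 2 the value with RA in WT was -1.17 ± 0.14 (adjusted p = 7.14e-08) and the genotype difference after RA was -0.11 ± 0.14 (adjusted p = 0.576).

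Among the synaptic genes, Snap25 and Syt4 were low in all groups and lowest in DKO after RA. Snap25 (chr2:136713450-136782428, plus strand), a SNARE protein of the plasma membrane that drives vesicle fusion, had counts of 14.3, 8.60 and 22.4 in WT serum/LIF and 22.9, 30.5 and 11.3 in DKO serum/LIF. After RA it had 45.9, 293 and 48.4 in WT, the 293 being replicate 2, and 5.69, 3.67 and 7.16 in DKO. The 3 libraries of DKO RA together held 18 Snap25 reads and those of WT RA 397. The groups did not overlap after RA with or without replicate 2. The DKO RA mean was 23.4-fold lower than that of WT RA (log2 difference -3.80 ± 0.57, limma adjusted p = 9.53e-06), or 8.57-fold lower (-2.93 ± 0.54, adjusted p = 0.000114) without replicate 2. RA raised Snap25 in WT by 2.54 ± 0.57 (adjusted p = 0.000303), or by 1.67 ± 0.54 (adjusted p = 0.00689) without replicate 2. In DKO the RA difference was -1.73 ± 0.57 (adjusted p = 0.00874), and this call was lost with a pseudocount of 10 (0.0991), with edgeR on recovered reads (0.0626) and without DKO serum/LIF replicate 2 (0.0534).

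Syt4 (chr18:31437808-31447415, minus strand) encodes a synaptotagmin of vesicles. Its counts were 47.7, 36.5 and 61.7 in WT serum/LIF and 59.6, 66.9 and 58.6 in DKO serum/LIF. After RA they were 21.6, 56.2 and 23.3 in WT and 3.79, 7.35 and 7.16 in DKO. All 3 DKO RA libraries were below every other library. Syt4 was 5.53-fold lower in DKO than in WT after RA (log2 difference -2.20 ± 0.39, limma adjusted p = 6.23e-05), and 3.68-fold lower (-1.77 ± 0.40, adjusted p = 0.00101) without replicate 2. In DKO it fell 10.1-fold with RA (-3.18 ± 0.39, adjusted p = 6.54e-08). The 3 libraries of DKO RA together held only 20 Syt4 reads, so the size of these differences is uncertain. Over 23 alternative settings the RA difference in DKO ranged from -3.33 to -2.16. The genotype difference after RA ranged from -2.45 to -1.36, and both calls were kept. In WT the RA difference was -0.62 ± 0.39 (adjusted p = 0.142), and without replicate 2 it became -1.05 ± 0.40 and passed the test (adjusted p = 0.0196).

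Syp and Syn1 encode synaptophysin, an abundant membrane protein of synaptic vesicles, and synapsin I, which tethers those vesicles. Syp (chrX:7638580-7653256, plus strand) had counts of 51.6, 45.1 and 65.5 in WT serum/LIF, 96.3, 119 and 78.9 in DKO serum/LIF, 169, 290.0 and 174 in WT RA and 119, 152 and 94.0 in DKO RA. WT serum/LIF was the lowest group and WT RA the highest, with neither overlapping another group, while the DKO groups overlapped each other. Syp was 1.81-fold higher in DKO in serum/LIF (log2 difference 0.84 ± 0.23, limma adjusted p = 0.00659). After RA it was lower in DKO, by -0.77 ± 0.23 (adjusted p = 0.00961), a call lost without WT RA replicate 2 (-0.52 ± 0.24, adjusted p = 0.0941) or without DKO RA replicate 3 (adjusted p = 0.0709). RA raised Syp 3.91-fold in WT (1.92 ± 0.23, adjusted p = 5.52e-08), or 3.18-fold without replicate 2 (1.67 ± 0.24, adjusted p = 7.97e-07). In DKO the difference with RA was 0.31 ± 0.23 (adjusted p = 0.232).

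Syn1 (chrX:20860511-20920918, minus strand) had counts of 441, 457 and 366 in WT serum/LIF, 507, 351 and 443 in DKO serum/LIF, 208, 324 and 198 in WT RA and 416, 358 and 301 in DKO RA. The serum/LIF groups overlapped, and after RA only WT replicate 2 reached the DKO range. RA lowered Syn1 in WT by 0.82 ± 0.17 on the log2 scale (limma adjusted p = 0.00021), and the value was -1.04 ± 0.15 (adjusted p = 7.01e-07) without replicate 2. In DKO the difference was -0.27 ± 0.17 (adjusted p = 0.156). After RA Syn1 was 1.47-fold higher in DKO (0.58 ± 0.17, adjusted p = 0.00983), or 1.76-fold without replicate 2 (0.80 ± 0.15, adjusted p = 0.00012). That call was lost without WT RA replicate 1 (0.0513) or 3 (0.0517) or DKO RA replicate 1 (0.0524). Timp1 lies within Syn1 on the opposite strand, shares 0 exon bases with it in the GENCODE vM21 annotation, and stood at 670 to 1162 across the libraries. Araf, on the opposite strand, shares 9 exon bases with Syn1 and stood at 1776 to 3205. Among annotated genes whose levels were not analysed here, Gm14703 shares 875 exon bases with Syp and Gm26658 shares 566 with Syt4, both on the opposite strand, and Gm23156 shares 65 with Celsr3 on the same strand. Whether the counting used strand is not given in the sources used here.

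**Figure D2:**
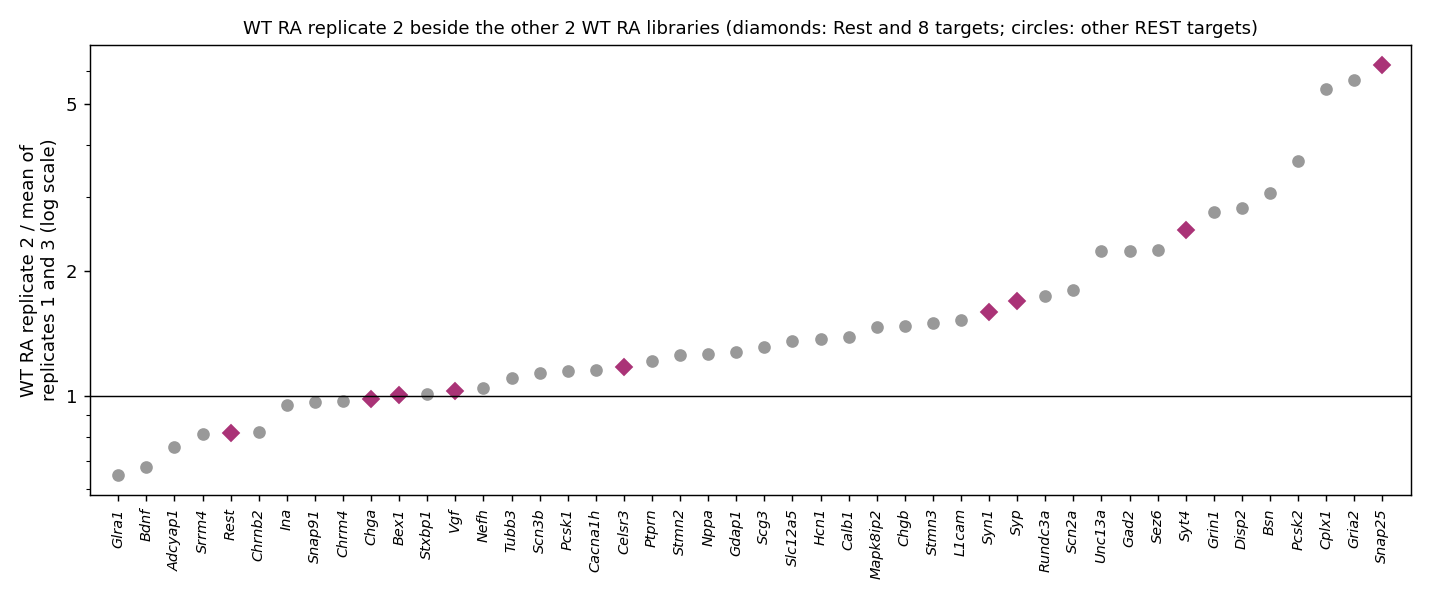
Ratio of WT RA replicate 2 to the mean of the other two WT RA libraries (log axis) for members and other listed targets of REST. The genes at the top include Snap25 at 6.21 and Gria2 at 5.72, while Rest is at 0.815 and Vgf at 1.03; Rph3a, at 84.3 in replicate 2 and 0 in the other two, has no ratio and is left out.

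WT RA replicate 2 was over 1.5 times the mean of its 2 replicates in 4 of 8 targets: Snap25 (6.21 times), Syt4 (2.5 times), Syp (1.69 times) and Syn1 (1.60 times). The same held for 13 of 38 other listed REST targets (34.2%) and for 5.59% of all tested genes. The threshold was set after seeing the data. Glial markers were highest in this library in 2 of 6 cases (33.3%, against 36.3% of all tested genes), among them Mbp, a myelin protein, at 312 against 98.2 and 90.6. Gfap, Aqp4, Olig2 and Sox10 stood at 0.743 to 1.09 times the mean of the other two libraries. The glial sum was 853 against 499.9 and 436. Neuronal markers were highest in it in 8 of 10 cases, but over 1.5 times the mean of the other two in only 1, Rbfox3, a marker of mature neurons, at 110.4 against 34.2 and 50.2. The neuronal sum was 7853 against 7059 and 6852. No marker of either list was at 0 in a whole group. The part of these transcripts in the values of replicate 2 was not tested.

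Bex1 was the most abundant target, and its group means spanned the least. Bex1 (chrX:136213972-136215513, minus strand) had counts of 7139, 7959 and 8456 in WT serum/LIF, 10239, 10398 and 10659 in DKO serum/LIF, 10076, 9945 and 9639 in WT RA and 9384, 9118 and 8999 in DKO RA. No group overlapped another. Bex1 was 1.33-fold higher in DKO in serum/LIF (log2 difference 0.41 ± 0.05, limma adjusted p = 1.31e-07), and after RA the difference was -0.11 ± 0.05 (adjusted p = 0.0584). RA raised it in WT (0.34 ± 0.05, adjusted p = 3.79e-07) and lowered it in DKO (-0.19 ± 0.05, adjusted p = 0.000741). Without WT RA replicate 2 the genotype difference after RA was -0.10 ± 0.05 (adjusted p = 0.105) and the RA difference in WT 0.33 ± 0.05 (adjusted p = 1.64e-06). The DKO value became 0.05 (adjusted p = 0.318) with libraries scaled to equal totals. Bex1 belongs to a family of similar genes, and the treatment of reads that map to several places is not stated in the sources used here. Its exons share 223 bases with Tceal7 on the opposite strand, which stood at 22.3 to 75.3.

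Celsr3, a receptor that guides growing axons, fell with RA in both genotypes. Celsr3 (chr9:108826045-108852969, plus strand) had counts of 635, 679 and 638 in WT serum/LIF, 648, 654 and 658 in DKO serum/LIF, 282, 329 and 277 in WT RA and 227, 228 and 208 in DKO RA. The serum/LIF groups overlapped, and WT RA and DKO RA did not. It fell with RA by 1.14 ± 0.09 in WT (limma adjusted p = 7.48e-11) and by 1.56 ± 0.09 in DKO (adjusted p = 1.88e-13). After RA it was lower in DKO by -0.42 ± 0.09 (adjusted p = 0.000935), or -0.34 ± 0.10 (adjusted p = 0.00935) without WT RA replicate 2, where the RA difference in WT was -1.22 ± 0.10 (adjusted p = 5.09e-11).

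Levels of different genes were compared per kb of the transcript named in the gene table, for the 8 genes whose transcript length was matched (Celsr3 was not). Bex1 was highest in all groups, at 9066 normalized counts per kb in WT serum/LIF and 12046, 11417 and 10585 in DKO serum/LIF, WT RA and DKO RA. Rest stood at 1770 per kb in WT serum/LIF and 349 in WT RA. Vgf had 78.2 per kb in WT serum/LIF and 388 in DKO serum/LIF, and Chga 305 and 330.0. Snap25 and Syt4 were at the bottom, with 7.15 and 12.5 per kb in WT serum/LIF and 2.60 and 1.57 in DKO RA. The targets thus spanned a wide range of levels in the cells with the most Rest.

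**Figure D3:**
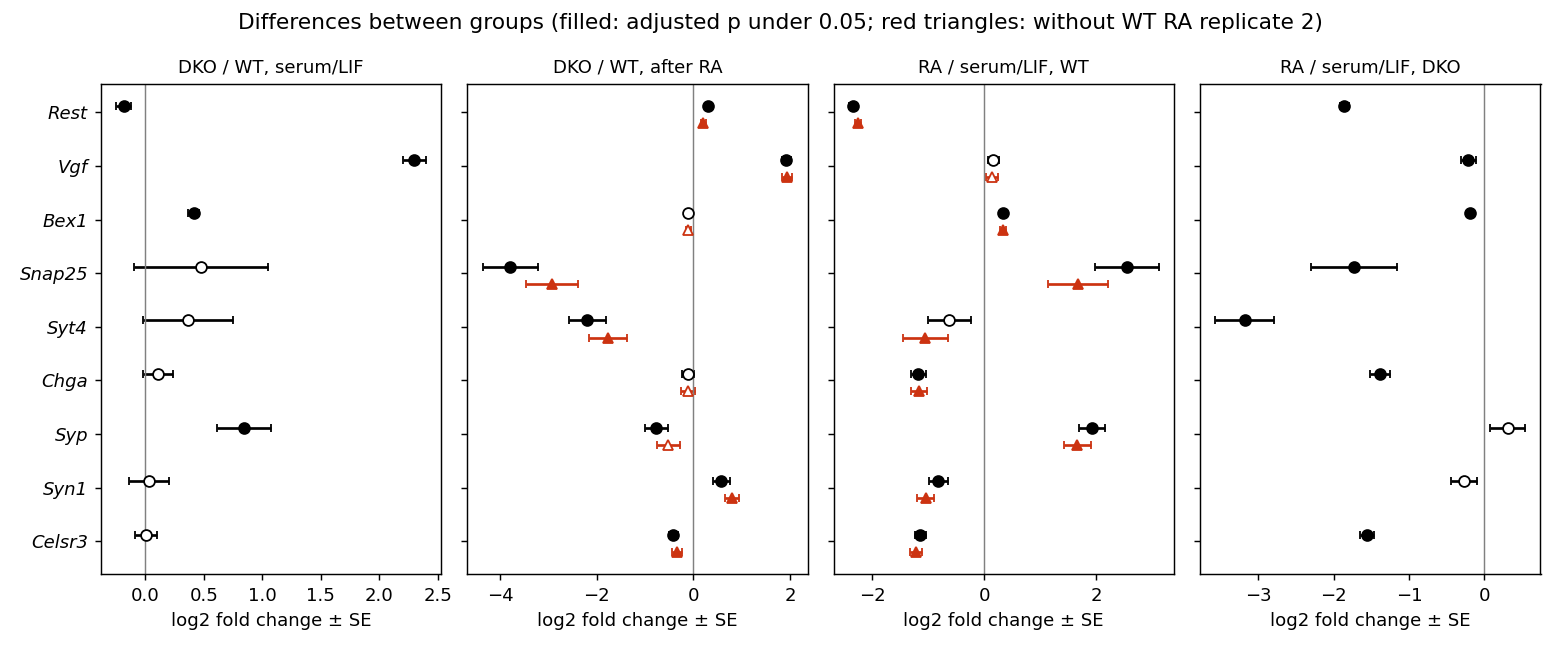
Log2 difference (log2 fold change) with its SE for Rest and the 8 targets in the genotype and RA contrasts, filled where the adjusted p is under 0.05, with red triangles for the fit without WT RA replicate 2. Vgf stands at 2.30 and 1.92 in the genotype contrasts, Rest is the lowest of the 9 genes with RA in WT at -2.35, and Snap25 reaches -3.80 in DKO against WT after RA.

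Counted over the 9 genes in DKO against WT in serum/LIF, 3 were higher (Vgf, Bex1 and Syp), 1 was lower (Rest) and 5 were not called. Of all 15750 tested genes 33.2% were called, 17.8% higher and 15.4% lower. The median log2 difference of the 8 targets was 0.39, against -0.01 over all genes. The targets that were called were all higher, and Vgf alone passed 2-fold. Neuronal markers included 5 of 10 that were higher and 1 that was lower, with sums of 16621 to 18214 in WT and 19428 to 20217 in DKO. Neural progenitor markers were higher in 4 of 6 and lower in 1, with sums of 3866 to 3987 and 6617 to 6766. Neuroendocrine markers went the other way in sum, from 688 to 779 in WT and from 417 to 527 in DKO, with 1 of 6 higher and 2 lower. Fibroblast markers were higher in 5 of 7 and lower in 0, with sums of 7286 to 7377 and 22000 to 23394. Endoderm markers were higher in 2 of 6 (sums of 197 to 271 and 368 to 400.2), and of 6 glial markers 1 was lower (745 to 829 and 844 to 983). None was at 0 in a group, and their part in the target levels was not tested.

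After RA, 3 of the 9 genes were higher in DKO (Rest, Vgf and Syn1), 4 were lower (Snap25, Syt4, Syp and Celsr3) and 2 were not called, where 42.7% of all genes were called, 22.0% higher and 20.7% lower. Without WT RA replicate 2 the counts were 3 higher and 3 lower, where 37.7% of 15611 genes were called, 19.9% higher and 17.9% lower. The median over the 8 targets was -0.26, or -0.23 without that library, against 0.01 over all genes. Neuronal markers included 8 of 10 that were lower and 1 that was higher, with sums of 6852 to 7853 in WT and 3868 to 4170 in DKO. Neural progenitor markers were lower in 5 of 6 and higher in 1, with sums of 12863 to 13076 and 11294 to 11486. Neuroendocrine markers were lower in 4 of 6 and higher in 0, with sums of 1605 to 1863 and 514 to 555. Fibroblast markers were higher in 4 of 7 and lower in 1 (sums of 48988 to 50813 and 62751 to 65197), and endoderm markers higher in 4 of 6 (1942 to 2209 and 2681 to 2906). Of 6 glial markers 2 were higher and 1 lower (436 to 853 and 541 to 582). Without WT RA replicate 2 the lower counts were 7 for neuronal, 5 for neural progenitor, 4 for neuroendocrine and 0 for fibroblast and glial markers, and endoderm markers were higher in 2. No marker of these lists was at 0 in a group, and their part in the lower Snap25, Syt4, Syp and Celsr3 was not tested.

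With RA in WT, 3 of the 9 genes were higher (Bex1, Snap25 and Syp) and 4 lower (Rest, Chga, Syn1 and Celsr3), where 80.6% of all genes were called, 41.4% higher and 39.2% lower. Without replicate 2 the counts were 3 and 5, Syt4 being the added lower call, where 78.9% were called, 40.2% higher and 38.8% lower. With RA in DKO, 0 were higher and 7 were lower (Rest, Vgf, Bex1, Snap25, Syt4, Chga and Celsr3), where 78.3% were called, 40.2% higher and 38.2% lower. The share of the 9 genes called in each genotype was near these backgrounds. The target medians were -0.23 in WT and -0.83 in DKO, against 0.04 over all genes in both. With libraries scaled to equal totals the median over all genes became 0.29 in WT and 0.27 in DKO, and the share of called genes that were higher rose from 51.3% to 63.1% and from 51.3% to 62.9%. Relative to that median the direction of the larger changes (Rest, Chga, Celsr3, Syt4 in DKO, Snap25 and Syp in WT) was the same. Syp in DKO passed the test as higher with that scaling (0.54, limma adjusted p = 0.0376). That test is against 0 and not against the shifted median. The Syp value was 0.54 beside a median of 0.27 there, and 0.31 beside 0.04 in the main fit.

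The genotype effect itself differed between conditions in 7 of the 9 genes by the interaction test in limma, 1 higher and 6 lower, where 30.8% of all genes were called, 14.8% higher and 16.0% lower. Without replicate 2 the counts were 2 higher and 4 lower, where 29.4% were called, 14.3% higher and 15.2% lower. Besides Rest, the interaction was -4.27 ± 0.81 for Snap25 (adjusted p = 0.000279), -2.56 ± 0.55 for Syt4 (0.000878), -1.61 ± 0.33 for Syp (0.000551) and -0.52 ± 0.06 for Bex1 (1.13e-06). These calls held without replicate 2, at -3.40 (0.000838), -2.13 (0.00369), -1.36 (0.00225) and -0.52 (1.89e-06). Celsr3 (-0.43 ± 0.13, 0.0182) and Vgf (-0.38 ± 0.14, 0.0434) lost the call without it (0.0562 and 0.0658), and Syn1, at 0.55 ± 0.24 (0.0951), gained it (0.77, 0.00467). Chga did not pass with it (-0.22 ± 0.18, 0.402) or without it (-0.22 ± 0.19, 0.427). The Vgf interaction call was lost in 8 of 22 alternatives, so its loss was not particular to replicate 2.

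**Figure D4:**
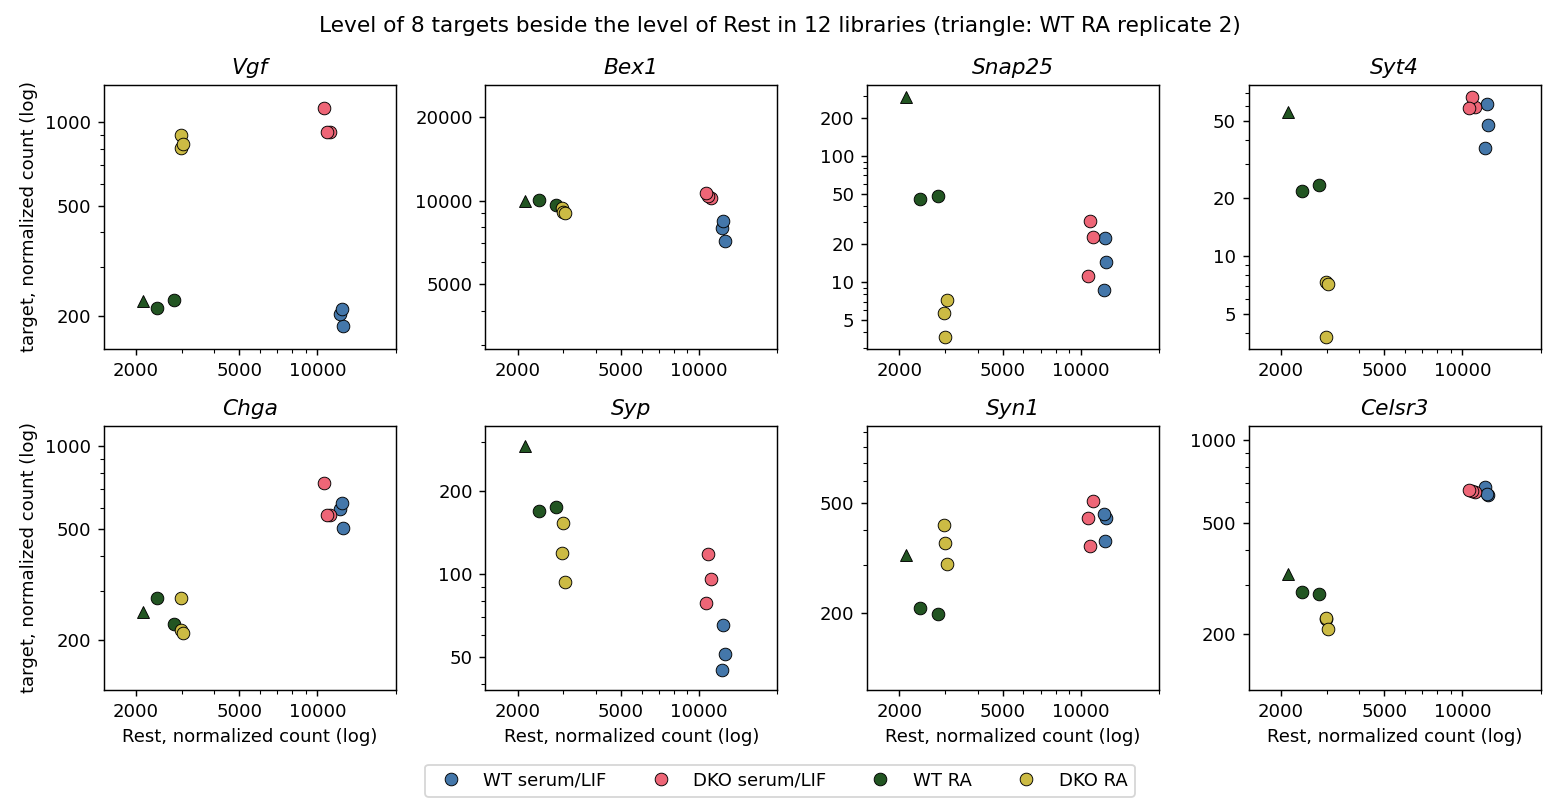
Normalized count of each target (vertical log axis) against that of Rest (horizontal log axis) in the 12 libraries, coloured by group, with a triangle for WT RA replicate 2. Vgf is higher in the DKO libraries than in the WT libraries both where Rest is high and where it is low, while Chga and Celsr3 are high where Rest is high.

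Set beside Rest, the targets did not move in one direction. The libraries fall into 4 groups of 3, so no correlation was computed, and the 4 contrasts share libraries. In serum/LIF, where Rest was lower in DKO, 3 targets moved opposite to it, 0 moved with it and 5 were not called. After RA, where Rest was higher in DKO, 4 moved opposite (Snap25, Syt4, Syp and Celsr3), 2 moved with it (Vgf and Syn1) and 2 were not called. Without WT RA replicate 2 Syp was not called, which left 3 opposite and 2 with it. In the much larger fall of Rest with RA in WT, 3 targets rose (Bex1, Snap25 and Syp), 3 fell as Rest did (Chga, Syn1 and Celsr3) and 2 were not called. Without replicate 2 Syt4 was added to those that fell, which made 4, and 3 rose. In the fall with RA in DKO, 0 rose and 6 fell. Many genes of any kind were called in these contrasts. Of all tested genes, RA raised 41.4% and lowered 39.2% in WT, and it raised 40.2% and lowered 38.2% in DKO. For the genotype contrast in serum/LIF the shares were 17.8% higher and 15.4% lower. With RA they were 22.0% and 20.7%. The target counts were not tested against these shares, so by themselves they do not show a relation to Rest. By the root mean square (RMS) log2 distance between the centred group means, Chga (0.449) and Celsr3 (0.461) were nearest to the pattern of Rest, and Vgf (1.48), Syp (1.69) and Snap25 (1.93) were farthest.

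**Figure D5:**
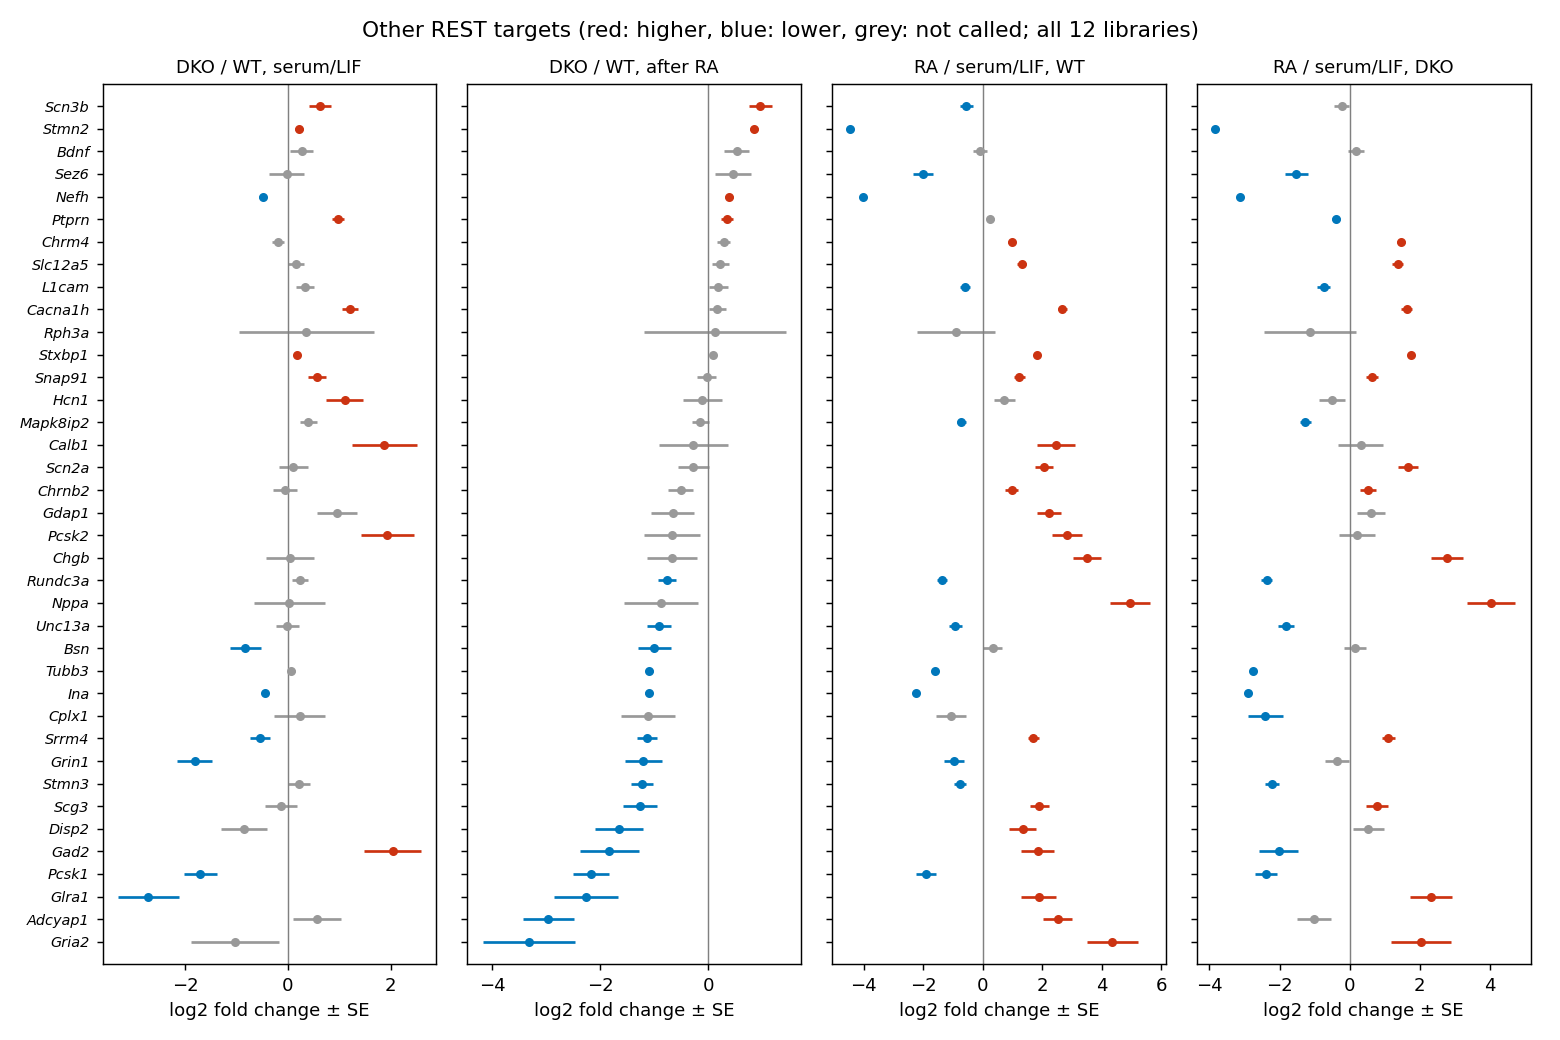
Log2 difference (log2 fold change) with its SE for 38 other REST targets in the genotype and RA contrasts, red where called higher, blue where called lower and grey where not called. In DKO against WT in serum/LIF the called points lie on both sides of 0 (10 called higher, 7 lower), and after RA most called genes lie below it (4 higher, 15 lower).

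A list of 43 other genes known as REST targets, written from general knowledge, was examined in the same way. The table held 42 of them, all but Dbh, and 38 passed the filter. In DKO against WT in serum/LIF, 10 were higher, 7 were lower and 21 were not called (median 0.17, against -0.01 over all genes). The called share was 44.7%, against 33.2% of all genes, 17.8% higher and 15.4% lower. Ptprn, a granule membrane protein, rose from 247 ± 34.3 to 486 ± 31.4 (log2 difference 0.98 ± 0.12, limma adjusted p = 4.42e-07), and Cacna1h, a calcium channel subunit, from 47.8 ± 5.43 to 112 ± 10.5 (1.21 ± 0.15, 1.15e-06). The prohormone convertases, which cut peptide precursors in granules, went apart: Pcsk2 was higher (1.94 ± 0.52, 0.00511) and Pcsk1 lower (-1.70 ± 0.32, 0.000231). Pcsk2 rested on 14 reads in WT and 51 in DKO there, with every WT library below 10. Its value ranged from 1.01 to 2.19 over the alternative settings, and the call was kept. The neurofilament genes Ina (-0.44 ± 0.06, 3.74e-06) and Nefh (-0.49 ± 0.07, 3.79e-06) were also lower. The count of higher genes was 6 without DKO serum/LIF replicate 2.

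After RA, 4 of these targets were higher in DKO, 15 were lower and 19 were not called (median -0.67, against 0.01 over all genes), where 22.0% of all genes were higher and 20.7% lower. Without WT RA replicate 2, of 36 tested, 5 were higher and 10 lower (median -0.38), against 19.9% and 17.9% of all genes. Ina, at 973, 915 and 952 in WT RA, was 404, 444 and 471 in DKO RA (log2 difference -1.11 ± 0.06, limma adjusted p = 7.46e-13). Tubb3, a neuronal tubulin, had 2258, 2359 and 2017 in WT RA and 1022, 1147 and 939.6 in DKO RA (-1.09 ± 0.07, adjusted p = 1.09e-11). Pcsk1 was again lower in DKO (-2.17 ± 0.32, adjusted p = 7.64e-06). Against this direction, Stmn2, a regulator of microtubules in growing axons, rose from 364 ± 55.1 to 648 ± 6.25 (0.84 ± 0.08, adjusted p = 6.47e-09), and Nefh (0.39 ± 0.07) and Scn3b (0.96 ± 0.22), a sodium channel subunit, were higher. In these 6 genes the call was the same without replicate 2. Tubb3 and Stmn2 are also on the neuronal marker list, and Pcsk1, Pcsk2 and Chgb on the neuroendocrine list.

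With RA, 19 of the 38 were higher and 13 lower in WT (median 0.84), and 13 were higher and 14 lower in DKO (median -0.03). The called shares of 84.2% and 71.1% were near the 80.6% and 78.3% of all genes. Without replicate 2 the WT counts were 17 and 14 of 36 (median 0.68). Among those that rose in WT were Chgb, which encodes secretogranin I (3.50 ± 0.47, limma adjusted p = 2.63e-07), Nppa (4.95 ± 0.68, adjusted p = 4.83e-07), a hormone precursor of the heart, and Gria2 (4.35 ± 0.86, adjusted p = 6.21e-05), a glutamate receptor subunit. Gria2 had 21.6, 128 and 23.3 in WT RA and did not pass the filter without replicate 2. Nppa and Gria2 had at most 2.35 and 1.91 in the serum/LIF libraries, so their differences depend on the pseudocount. Chgb reached 10 in serum/LIF only in DKO replicate 2 (16.4). These genes passed the filter through RA libraries, Gria2 through those of WT alone. Their rise with RA, and the lower call of Gria2 in DKO after RA, were thus favoured by the filter, and their p-values are not support. Stmn2 (-4.48 ± 0.08), Nefh (-4.02 ± 0.07) and Ina (-2.24 ± 0.06) fell most in WT, as they did in DKO (-3.85, -3.14 and -2.90). The interaction was higher for 3 and lower for 11, or 2 and 9 without replicate 2, where 14.8% of all genes were higher and 16.0% lower with that library, with Tubb3 at -1.17 ± 0.09 (adjusted p = 2.66e-09), Adcyap1, a neuropeptide precursor, at -3.53 ± 0.67 (adjusted p = 0.000262) and Nefh at 0.88 ± 0.10 (adjusted p = 1.7e-07). Adcyap1 rested on 26 reads in WT serum/LIF, 32 in DKO serum/LIF, 166 in WT RA and 18 in DKO RA. In the promoter search, 29 of the 43 had a window, and Gad2, Gria2 and Rph3a held a match at 12 letters.

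Relatives of the targets were counted from a list of 24, of which 23 were tested (Bex6 was not in the table). In serum/LIF 9 were higher in DKO and 3 lower, a called share of 52.2% against 33.2% of all genes. Bex3 rose 1.35-fold (0.44 ± 0.05, limma adjusted p = 6.94e-07), close to the 1.33-fold of Bex1, and Bex2 1.2-fold (0.27 ± 0.06, adjusted p = 0.00202), whereas Bex4 had 0.04 ± 0.05 (adjusted p = 0.514). Syt13, an atypical synaptotagmin, rose 2.01-fold (1.00 ± 0.22, adjusted p = 0.000999). The lower genes were Syt2, a synaptotagmin, at 7.64, 8.60 and 9.35 in WT and 2.29, 2.35 and 1.13 in DKO (-1.73 ± 0.41, adjusted p = 0.00182), and, by less, the relatives of Celsr3, Celsr1 at -0.30 ± 0.08 (adjusted p = 0.00465) and Celsr2 at -0.26 ± 0.08 (adjusted p = 0.00963), the latter lost without WT serum/LIF replicate 2 (0.0699) or DKO serum/LIF replicate 2 (0.0741). Syt2 rested on 26 reads in WT and 5 in DKO there, below the filter level of 10 in every library. It was tested only through its RA libraries, and its call was lost in 1 of 23 alternatives. After RA 6 were higher in DKO and 8 lower, a called share of 60.9% against 42.7% of all genes, or 6 and 5 without replicate 2, where 37.7% of all genes were called. Syt7 (1.05 ± 0.11, adjusted p = 2.51e-08) and Syt13 (1.31 ± 0.22, adjusted p = 3.73e-05) were higher, and Syt6 (-1.94 ± 0.38, adjusted p = 0.000191), Celsr2 (-0.62 ± 0.08, adjusted p = 4.49e-07) and Bex2 (-0.43 ± 0.06, adjusted p = 5.39e-06) were lower. Syt6 had 272, 273 and 271 in WT RA, even across replicates, and 66.4, 79.9 and 65.3 in DKO RA. With RA 16 were higher and 4 lower in WT (15 and 4 without replicate 2), and 13 and 5 in DKO. These called shares of 87% and 78.3% stood beside 80.6% and 78.3% of all genes.

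Among the proteins REST works through, 26 corepressors and partners were listed, and 3 were higher and 9 lower in DKO in serum/LIF. The called share was 46.2%, against 33.2% of all genes, 17.8% higher and 15.4% lower. The lower ones included the CoREST genes Rcor1 (1729 ± 29.9 in WT, 1558 ± 69.5 in DKO, -0.15 ± 0.05, limma adjusted p = 0.0217) and Rcor2 (6444 ± 79.7 and 5942 ± 303, -0.12 ± 0.04, 0.0364), and Kdm1a, the gene of LSD1 (9821 ± 278 and 9039 ± 109, -0.12 ± 0.04, 0.016). The CoREST gene Rcor3 had a difference of the other sign that did not pass, 0.31 ± 0.12 (0.0507). Ctbp2, a corepressor, was lower by -0.27 ± 0.04 (8.92e-06), and Ctdspl, a small phosphatase that REST recruits, was higher by 0.71 ± 0.09 (5.03e-07). The count of lower genes was 4 without WT serum/LIF replicate 2, which ended the calls of Rcor1 (0.0739), Rcor2 (0.113) and Kdm1a (0.0976), and 5 without WT serum/LIF replicate 1 or 3 or DKO serum/LIF replicate 1. Rcor1 was also lost without DKO serum/LIF replicate 3 (0.1), and Rcor2 without any of 4 other serum/LIF libraries, WT replicates 1 (0.0566) and 3 (0.0673) and DKO replicates 1 (0.104) and 2 (0.16). After RA 6 were higher and 3 lower, a called share of 34.6% against 42.7% of all genes, or 4 and 3 without WT RA replicate 2. Gse1, a CoREST-associated protein, rose 1.38-fold in DKO (0.47 ± 0.04, adjusted p = 4.29e-09), Rcor2 (-0.20 ± 0.04, 0.000564) and Rcor1 (-0.15 ± 0.05, 0.0196) were lower, and Kdm1a had -0.01 ± 0.04 (0.912). This Rcor1 call was lost without WT RA replicate 1 (0.06) or 3 (0.0849) or DKO RA replicate 1 (0.0528) or 3 (0.0552), and without WT RA replicate 3 the count of lower genes was 1. With RA, 14 were higher and 11 lower in WT (14 and 10 without replicate 2), Ctbp2 falling 5.01-fold and Ctdspl rising 6.89-fold, and 14 and 9 in DKO. These shares of 96.2% and 88.5% stood beside 80.6% and 78.3% of all genes.

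Of 10 genes for regulators of REST itself, 0 were higher and 1 lower in DKO in serum/LIF, and 2 were higher and 1 lower after RA, with and without WT RA replicate 2. The called shares were 10% and 30%, against 33.2% and 42.7% of all genes. The lower gene was Srrm4 in both, a neuronal splicing factor that shifts Rest transcripts to a less active form and is itself a REST target. It had 406, 322 and 388 in WT RA and 169, 168 and 166 in DKO RA (-1.14 ± 0.19, limma adjusted p = 2.67e-05). In serum/LIF it was lower by -0.54 ± 0.19 (adjusted p = 0.0284), a call lost without WT serum/LIF replicate 1 (0.0791) or 3 (0.0698) or DKO serum/LIF replicate 2 (0.218). After RA 2 regulators were lower without WT serum/LIF replicate 1, DKO serum/LIF replicate 3, WT RA replicate 3 or DKO RA replicate 1, and 1 was higher without DKO RA replicate 3. Btrc, a subunit of the ubiquitin ligase that marks REST for breakdown, was higher in DKO after RA by 0.20 ± 0.05 (adjusted p = 0.00425). With RA in WT 5 of the 10 were higher and 5 lower with and without replicate 2, against 80.6% of all genes called, among them Srrm4 at 1.70 ± 0.19 (adjusted p = 1.08e-08). Gene totals do not show which Rest isoform was made.

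The genes whose 4 group means were most like those of Rest were found among 11616 tested genes with a mean of 100 or more, by the RMS difference of centred log2 means over the 4 groups. Msh6, a mismatch repair gene, was nearest at 0.0202, with means of 36055 ± 339 in WT serum/LIF, 31283 ± 712 in DKO serum/LIF, 7216 ± 196 in WT RA and 8917 ± 81.5 in DKO RA. Prodh, a proline dehydrogenase, followed at 0.0433 and Atf7ip2 at 0.0439. With 4 groups, such likeness is a description of level patterns.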

How the data were processed

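Total RNA of 12 TT2 libraries was sequenced, and the sample labels gave the groups. Tools listed in the submitters' processing notes are STAR 2.7.11b, Trim Galore 0.6.10, DESeq2 1.44.0 and Subread 2.0.6 with featureCounts, and the listed build is mm10. The sources used here give no setting for strand or for reads mapping to several places. The deposited library values are a signal, reads divided by a size factor by the authors: 100% of values were within 0.01 of a whole read. In 1 library column of each table the size factor is close to 1, so that an automated check gave no verdict there. Per the file headers the authors also deposited log2 fold changes, a test score and p-values, which were not used. The repeat table, with 1387 repeat names, served only for the share of rRNA-class reads.

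Values were taken as log2(value + 1). Genes reaching 10 in 3 or more libraries were tested (15750, with 2151 below), in 1 fit of limma 3.58.1 (R 4.3.3, trend and robust) with group means and without a replicate block, and called at an adjusted p under 0.05. Contrasts share libraries. Folds are ratios of group means. A gene passing the filter only through the group where it is high had to differ, which holds for part of the listed genes. Alternatives were other pseudocounts (0.5 and 10), filters (none and 50), scalings (equal totals and TMM of edgeR 4.0.16), only the groups compared, no trend, a replicate block, edgeR and DESeq2 1.42.0 on recovered reads, and each library left out.

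The members and lists were chosen with earlier results of these data known, so no list count is independent evidence. All members were named. Named genes were drawn from up to 3 called genes per list and direction, by the smallest adjusted p in genotype and interaction contrasts and by the largest fold with RA. Bex2, Bex4, Rcor1, Rcor2, Rcor3, Kdm1a and Rbfox3, Mbp, Timp1, Araf and Tceal7 were singled out in some comparisons after their values were seen. On simulated counts of 14799 genes with changes made in the serum/LIF DKO libraries, limma recovered 42% of genes changed 1.25-fold, 62% at 1.5-fold, 72% at 2-fold and 98% at 4-fold, with 6 false calls. There 50 genes were changed at each fold, and all groups otherwise had the WT serum/LIF means. Far more genes were called in the real contrasts, so these rates need not hold for them. Promoter windows were searched in the RefSeq-based table, and overlaps in GENCODE vM21.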

Additional observations from a re-analysis of the deposited data

Results flagged for a closer look

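In 7 of the 9 genes the difference between DKO and WT was not the same after RA as in serum/LIF, by the interaction test of limma (effect after RA minus effect in serum/LIF, log2 scale). Of all tested genes 30.8% were called in this test, 14.8% higher and 16.0% lower. The value was 0.49 for Rest, -0.38 for Vgf, -0.52 for Bex1, -4.27 for Snap25, -2.56 for Syt4, -1.61 for Syp and -0.43 for Celsr3. Rest was lower in DKO in serum/LIF (-0.19) and higher after RA (0.30), Syp was higher and then lower (0.84 and -0.77), and Vgf was higher in both (2.30 and 1.92). Snap25 had a difference of 0.47 that did not pass in serum/LIF (adjusted p = 0.567) and -3.80 after RA. The calls of Vgf and Celsr3 were lost without WT RA replicate 2, and Syn1 was then called. That left 2 genes higher and 4 lower, where 29.4% of all genes were called. The Vgf call did not depend on that library alone. It was lost in 8 of 22 alternatives, among them without WT serum/LIF replicate 1 (limma adjusted p = 0.0999) or DKO serum/LIF replicate 3 (0.144).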

How the results depend on the processing

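Of 45 results for single members, 28 kept their direction and their side of the threshold under all of up to 23 alternatives, and of 105 results for listed genes 93 did. Without trend and robust settings, 0 members were lower in DKO in serum/LIF (Rest, adjusted p = 0.123), and Syn1 after RA (0.057) and the Vgf interaction (0.0523) were lost. With a filter at 50, 10 other REST targets were higher with RA in WT and 7 lower in the interaction, since fewer genes were tested. With equal totals 1 member was higher with RA in DKO, Vgf (0.017) and Bex1 (0.048) turned direction there, Vgf in WT passed (0.42, adjusted p = 0.000427), and Rest stood at 11309 in WT serum/LIF, 10052 in DKO serum/LIF and 3259 in DKO RA. These RA differences were tested against 0, while the median over all genes was 0.29 in WT and 0.27 in DKO with that scaling. The fit without a filter lost Vgf with RA in DKO (0.0547). Bex1 after RA passed with equal totals (0.0315), TMM (0.0491), edgeR (0.0415) and only the groups compared (0.0165).

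Leaving out single libraries gave 0 to 1 members lower and 6 to 11 other targets higher in DKO in serum/LIF, and 1 to 2 members higher in the interaction, where Syn1 was added without WT RA replicate 2 or DKO RA replicate 3 (0.0496). It turned 3 uncalled serum/LIF differences, which ranged from -0.011 to 0.037 for Celsr3, from -0.089 to 0.18 for Syn1 and from -0.021 to 0.17 for Chga. The cause of these changes was not tested.

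Replicate numbers showed no strong pairing of the libraries. The correlation of deviations between same-numbered libraries of different groups was at most 0.0507, and 0 of 18 exceeded 0.1. Between libraries of different numbers it was at most 0.0264. Such correlations cannot show that weak pairing was absent. The replicate block gave 3 members higher in DKO in serum/LIF and 1 lower, 3 and 4 after RA, 3 and 4 with RA in WT, 0 and 7 with RA in DKO, and 1 and 6 in the interaction, and it moved no member across the threshold. A library correlated best with its own number in 13 of 36 checks against the libraries of another group. At 18 to 56 reads per group outside WT RA, depth limits the precision for Snap25. The 20 reads in DKO RA limit it for Syt4.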
